A study of Arvicanthis niloticus with 28 samples.

Results

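The cytosolic ribosomal protein genes were taken as every gene symbol that starts with Rpl or Rps and a digit, together with Rplp0, Rplp1, Rplp2 and Rpsa, and without the symbols that start with Rps6k or contain -ps. This rule gave 86 of the 18970 genes in the tables, 52 with a large subunit symbol and 34 with a small subunit symbol. Of these, 10 were paralogs or other symbols, among them Rps19bp1, which encodes a protein that binds a ribosomal protein and is not itself part of the ribosome, and 76 were core ribosomal protein genes. The symbols are mouse symbols, and 81 of the 86 were also present in the RefSeq annotation of the Nile rat assembly mArvNil1.pat.X.

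The cytosolic ribosome is assembled from ribosomal RNA and many proteins, split between a large subunit, which joins amino acids, and a small subunit, which reads the messenger RNA. The messenger RNAs of ribosomal proteins begin with a short pyrimidine tract that couples their translation to mTORC1, a kinase complex that responds to nutrients and insulin. In most tissues they are short and abundant transcripts, and their levels tend to move together.

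RNA was sequenced from the isolated retinal vasculature of 28 Nile rats (Arvicanthis niloticus), a day-active rodent used as a model of type 2 diabetes, with 1 library per rat. All rats were wild type, and no drug treatment is described. The labels give the sex, the density of acellular capillaries (empty basement membrane tubes without living cells) and the random blood glucose of each rat, but not its age or diet. In the study, rats received either a high-fiber or a high-caloric diet, and which of these each rat had is not labelled. Blood glucose was measured every 4 weeks in the study, and the fractional label values point to means over readings. The normal group held 24 rats with densities of 5.90 to 14.5 per mm2, 16 females and 8 males, with glucose of 52 to 422 mg/dL. The pre-dropout group held 4 rats with densities of 17.1 to 17.9 per mm2 and glucose of 57.4 to 443 mg/dL, and all 4 were males, so that density group and sex cannot be told apart among them. Glucose was above 200 mg/dL in 5 rats, of which 2 were pre-dropout. The libraries were labelled as separate rats, and total expected counts ran from 153111 (rat T410F) to 10029207 (rat T424M), with 2 libraries under 1000000. Sums of TPM (a level per transcript length, scaled to the same total in every library) over 10 endothelial markers were 11871 to 53713 and over 9 pericyte markers 2583 to 15657, and those over 11 rod photoreceptor markers 132 to 7812, so that rod markers were present in every library.

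Ribosomal protein transcripts covered a wide range of levels. By mean TPM over the 28 libraries, 4 members lay above 1000, 36 above 300, 22 between 100 and 300, 20 between 20 and 100 and 8 under 20. On the small subunit, the 5 highest were Rps20 at 2029 ± 1464 TPM (SD, n = 28 for every such value in this paragraph), Rps27a at 1956 ± 1516, Rps4x at 1182 ± 406.6, Rps16 at 843 ± 505 and Rps9 at 771 ± 317. Rps27a encodes a ribosomal protein fused to ubiquitin, and Rps4x lies on the X chromosome in mammals. On the large subunit, the 5 highest were Rpl36 at 1162 ± 637 TPM, Rplp1 at 889 ± 513, Rpl8 at 875 ± 364, Rpl14 at 701 ± 227 and Rpl5 at 648 ± 193. Most neighbours in this order differed by less than their SD. TPM is divided by length, and counts scaled between libraries without that division gave another order. By such counts Rps20 kept rank 1 among the members. Rpl36 moved from rank 4 to 35, Rpl8 from 6 to 19 and Rpl14 from 12 to 31. Rpl5 rose from 13 to 2 and Rps6 from 49 to 8. Spearman's rho between the orders was 0.83 over the members. Whether the lengths behind the TPM hold for Nile rat transcripts was not tested. Rps27a led the members by TPM in 11 libraries, Rps20 in 10, Rps4x in 4 and Rpl8 in 3. Rps20 and Rps27a also carried the widest absolute spread, with TPM of 460 (rat T393F) to 6091 (rat T448M) and 336 (rat T399F) to 6352 (rat T448M).

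**Figure D1:**
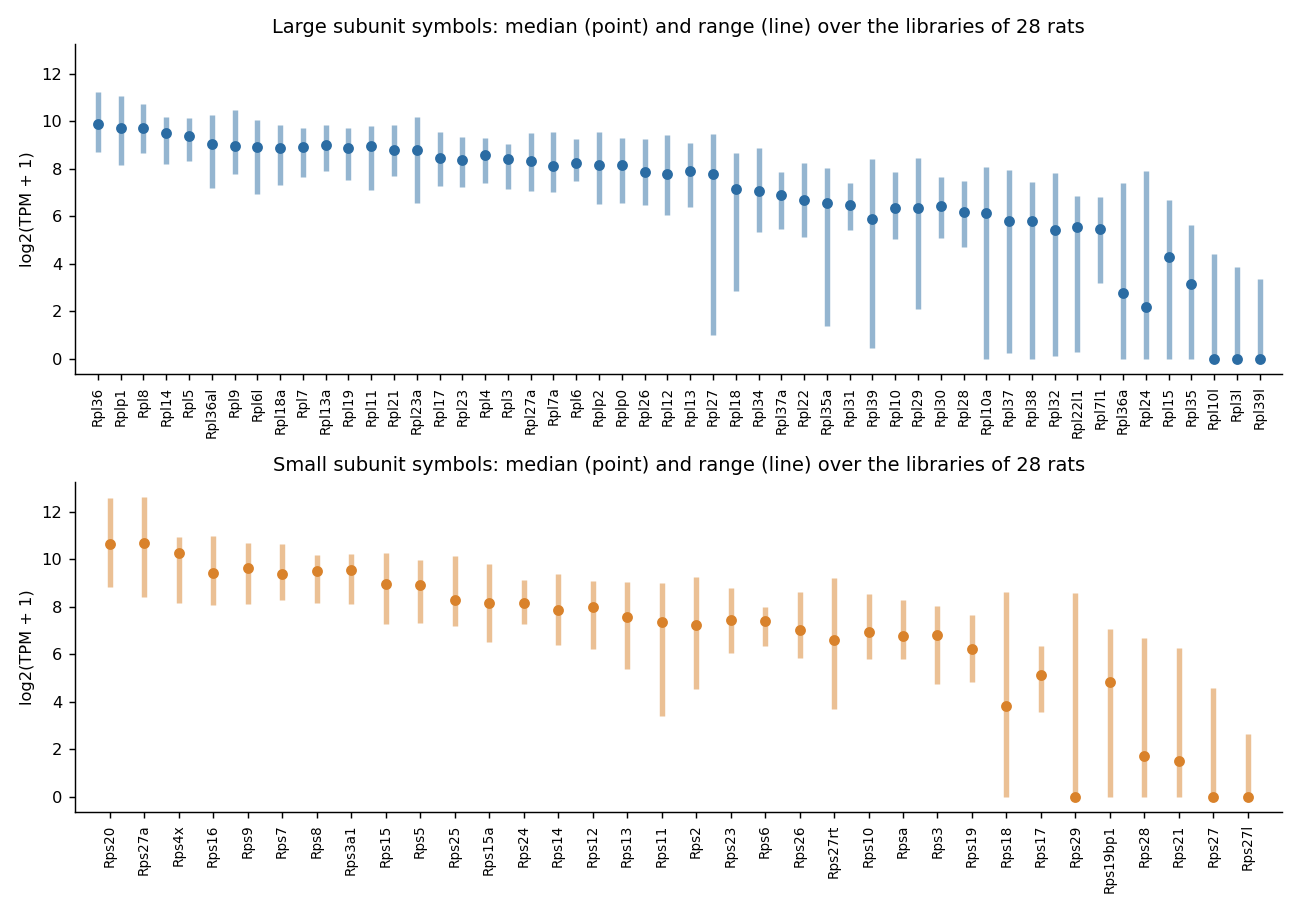
Level of each member as log2(TPM + 1), in order of mean TPM, for 52 large subunit symbols (top) and 34 small subunit symbols (bottom). Points are medians and lines run from the lowest to the highest of the 28 libraries, which shows tight ranges for members such as Rpl5 and Rps6 and ranges that reach 0 for members such as Rps18, Rpl24 and Rps21.

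The proteins of the acidic stalk, on which elongation factors land, were not equal at the transcript level: Rplp1 had 889 TPM, Rplp2 307 ± 175 and Rplp0 296 ± 125 (SD, n = 28). Rpsa, which encodes both a small subunit protein and the laminin receptor precursor, had 125 ± 62.4 TPM. Of the members with a role described outside or at the core of the ribosome, Rpl5 and Rpl11, which bind Mdm2 when ribosome assembly fails, had 648 and 475 ± 200 TPM. Rpl13a, known from the interferon-gamma-activated inhibitor of translation, had 490 ± 176 TPM, and Rpl3, at the peptidyl transferase centre, had 354 ± 103. Rps14 and Rps19, which are linked to inherited or acquired anaemia, had 267 ± 163 and 81.9 ± 38.5 TPM, and Rps6, the substrate of the S6 kinases, had 165 ± 49.6. Rps3, which also takes part in DNA repair, had 109 ± 51.6 TPM, Rpl10 88.2 ± 37.5, Rpl22 117 ± 59.3, Rpl39 92.6 ± 88.0 and Rpl38, which is needed for translation of Hox messenger RNAs in mouse embryos, 57.6 ± 34.3. Per length, then, members whose proteins are held in equal number in the ribosome were listed at unequal TPM.

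Some core members were close to absent from the tables. A count was present in every library for 70 of the 86 members, and 6 members were at 0 in more than 14 libraries, which were Rps27 (21 libraries), Rpl3l and Rps29 (22 each), Rpl10l (23), Rpl39l (26) and Rps27l (27). Rpl3l, Rpl10l, Rpl39l and Rps27l are tissue-restricted or stress-induced paralogs, whereas Rps27 and Rps29 are core small subunit genes. For 7 pairs of related symbols, reads may have been divided between the copies, and the levels of both symbols of a pair are therefore uncertain. Rps27rt, a mouse retrocopy of Rps27, held nearly all of the expected counts of that pair, and Rps27 itself held 0.844% of them. Rpl36al held 99.1% of the counts of the pair Rpl36al and Rpl36a, Rpl6l held 32.7% of those of Rpl6l and Rpl6, and Rpl22l1 held 12.4% of those of Rpl22l1 and Rpl22. The shares of Rpl39l, Rpl3l and Rpl10l against Rpl39, Rpl3 and Rpl10 were 0.335%, 0.146% and 0.184%. Rack1, a ribosomal protein whose symbol is outside the rule, had 382 ± 196 TPM.

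Together the 86 members held 2.84% ± 1.10 of all TPM (SD, n = 28), from 1.24% (rat T393F) to 5.44% (rat T448M), a 4.38-fold range. The next highest shares were 4.89% (rat T392F) and 4.44% (rat T410F), and the next lowest 1.41% (rat T397F), 1.48% (rat T401F) and 1.53% (rat T370M). In the pre-dropout group the share was 2.46%, 2.37%, 2.33% and 3.25% in rats T353M, T389M, T391M and T407M, a mean of 2.60% ± 0.435, and all 4 lay inside the range of the normal group, whose lowest, median and highest shares were 1.24%, 2.87% and 5.44%, with a mean of 2.88% ± 1.17. The difference of the means, pre-dropout minus normal, was -0.29 percentage points, and it was -0.67 within males alone, -0.10 without the 2 libraries under 1000000 counts, -0.15 without Rps20 and Rps27a, -0.19 as share of expected counts and -0.50 without rat T407M. Among the normal rats the share was 3.27% ± 1.13 in 8 males and 2.69% ± 1.18 in 16 females, ranges that overlapped. The 5 rats above 200 mg/dL had 2.999% ± 1.36 and the other 23 had 2.81% ± 1.06. Of the 5, rats T392F and T446M were among the higher shares and rats T370M, T389M and T391M were below the mean of all libraries. As share of expected counts, not divided by length, the members held 2.49% ± 1.02 (n = 28). In a bulk sample, more ribosomal protein RNA per cell and a different mix of cells cannot be told apart.

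**Figure D2:**
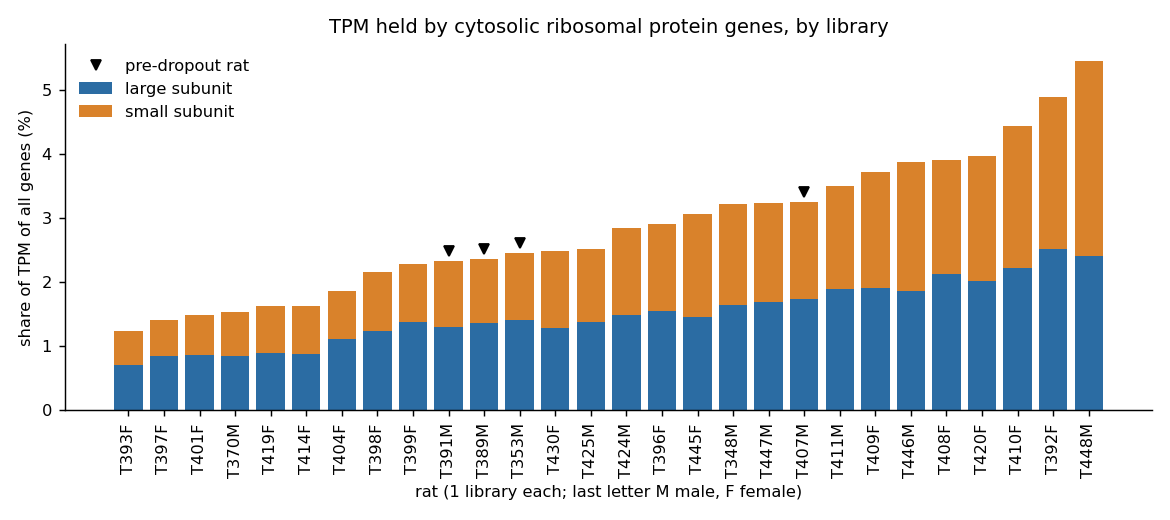
Share of the TPM of all genes held by ribosomal protein genes in each of the 28 libraries, in rising order, divided into large and small subunit symbols. Triangles mark the 4 pre-dropout rats, of which 3 lie side by side at 2.33% to 2.46% and rat T407M higher at 3.25%, and the bars run from 1.24% to 5.44%.

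The share moved with measures of the library as a whole. Over the 28 libraries, which share no replicate, Pearson's r of the share was -0.67 (Spearman's rho -0.64) with the log2 of total expected counts and -0.76 (rho -0.72) with the number of genes that had at least 1 count. Without the 2 libraries farthest from the median depth, T410F and T448M, r with depth was -0.61. Of the 81 members that passed the filter on low counts, 74 had a negative r with depth on the log2(TPM + 1) scale, with a median of -0.47, whereas 31.6% of all genes tested had a negative r, with a median of 0.14. The share was lower in libraries with more bipolar marker TPM (r = -0.69) and more amacrine, horizontal and ganglion marker TPM (r = -0.59), and higher in those with more erythrocyte marker TPM (r = 0.53), pericyte marker TPM (r = 0.47) and endothelial marker TPM (r = 0.44). With the mitochondrially encoded share of TPM r was 0.01, and with glucose r was 0.18 (rho 0.26). The part of depth and of cell mix in the share was not tested.

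**Figure D3:**
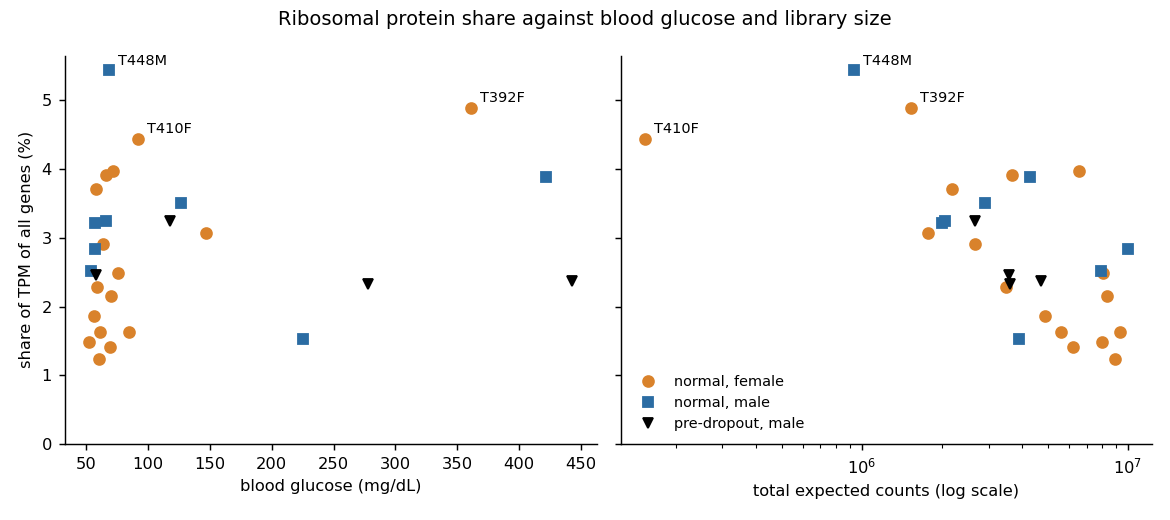
Share of TPM held by ribosomal protein genes against random blood glucose (left, mg/dL) and against total expected counts (right, log axis), with 1 point per rat. The share falls with the total count (r = -0.67 with its log2), while no steady rise with glucose is seen (r = 0.18) and rat T392F is the high point among the rats above 200 mg/dL.

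Large subunit symbols held 1.50% ± 0.494 of TPM and small subunit symbols 1.34% ± 0.615 (SD, n = 28). The ratio of large to small was 1.18 ± 0.184, from 0.795 in rat T448M to 1.53 in rat T399F. In the pre-dropout group it was 1.27 ± 0.0869 (n = 4) and in the normal group 1.17 ± 0.193 (n = 24), a difference of 0.11, under the SD of the normal group, and of 0.06 without Rps20 and Rps27a. In normal males it was 1.07 ± 0.153 (n = 8) and in normal females 1.22 ± 0.198 (n = 16), again with overlapping ranges. The ratio was lower where the share was higher (r = -0.76, rho -0.78, n = 28). The share and the ratio are built from the same sums, so the relation is a description only. A pair of genes carried much of this movement: Rps20 and Rps27a held 27.1% ± 8.04 of small subunit TPM, from 11.9% (rat T399F) to 41.1% (rat T448M). Without both, the ratio was 1.62 ± 0.137 and ran from 1.35 to 1.88. The mean log2(TPM + 1) of the large and of the small subunit members tested followed each other with r = 0.90 (rho 0.86).

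Between libraries, ribosomal protein genes varied less than most genes. The coefficient of variation (CV, the SD divided by the mean) of CPM (counts per 1000000, scaled by TMM and not divided by length) had a median of 0.555 over the 81 members tested and of 0.887 over all 13800 genes, and 70 members lay below the latter. Higher counts lower the CV of any gene, and against edgeR's trend at the same level the gap was smaller. The median biological coefficient of variation of the members was 0.576 and the median of the trend at their levels 0.581. The median ratio to the trend was 0.931 for the members and 0.972 for all genes. Below the trend lay 58 of 81 members, a larger part than the 57.5% of all genes. The 3 lowest CVs were those of Rpl5 at 0.320, Rpl3 at 0.320 and Rps6 at 0.323. The 3 highest were those of Rps29 at 2.49, Rps21 at 2.16 and Rpl24 at 2.09, all with means under 40 TPM. Members with a lower mean CPM had a higher CV (rho = -0.67 across the 81 members), and so did those with a shorter effective length in the tables (rho = -0.51), where genes are not independent replicates.

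Most members followed one another from library to library. The median pairwise Pearson's r on the log2(TPM + 1) scale was 0.42 among members, 0.36 among large subunit and 0.56 among small subunit symbols, against 0.13 among all genes tested. With the mean of the other members r was above 0.5 for 57 of the 81 and had a median of 0.64. The closest were Rps16 (r = 0.92), Rps20 (r = 0.88), Rps25 (r = 0.88), Rps14 (r = 0.86) and Rpl36 (r = 0.86). It was below 0 for 6, which were Rps21 (r = -0.38), Rps18 (r = -0.34), Rps19bp1 (r = -0.14), Rpl35 (r = -0.08), Rps28 (r = -0.05) and Rpl7l1 (r = -0.0012). Apart from Rps19bp1 and Rpl7l1, these are core genes whose products are present in every ribosome, and their mean levels were 7.81 TPM for Rps21, 59.0 for Rps18, 16.6 for Rpl35 and 15.1 for Rps28.

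The genes outside the family whose levels were most like the mean of the members were Cables2 (r = 0.86), Gm10126 (r = 0.81), Wdr38 (r = 0.81), Erc1 (r = 0.80), Tmsb4x (r = 0.79), Ptms (r = 0.77), Gng11 (r = 0.75) and Pcsk7 (r = 0.75), over 28 libraries on the log2(TPM + 1) scale. Among them are Tmsb4x, which encodes an abundant actin-binding peptide, and Gng11, a G protein subunit. In the RefSeq order of Nile rat genes, Cables2 is the protein-coding gene next to Rps21, and Wdr38 is the one next to Rpl35 and overlaps it. These neighbours were looked up after the correlations had been seen. Of 125 neighbours of members that were tested, 2 had an r above 0.7, which are these 2, and of the 13719 genes tested that are no members 0.117% did. The median r of the neighbours was -0.10 and that of all genes tested -0.15.

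An r above 0.5 with the mean of the members was held by 7 of the 125 neighbours, or 5.60%, against 1.48% of the genes that are no members. Besides the first 2, these were B3galt4 (r = 0.67) and Vps52 (r = 0.54) on either side of Rps18, Kank3 (r = 0.54) next to Rps28, Pnpla2 (r = 0.53) next to Rplp2 and Tead3 (r = 0.50) next to Rpl10a. Rplp2 and Rpl10a followed the other members themselves (r = 0.85 and 0.58), so such neighbours were not limited to members that did not. Rpl24 (r = 0.05 with the other members) had neighbours, Cep97 and Zbtb11, with r of -0.24 and -0.30. Cables2 had a median of 25.0 TPM, from 5.50 to 98.2, with a count in every library, where Rps21 had a median of 1.81 TPM and was at 0 in 13 libraries. In rat T448M, with the highest ribosomal protein share, Cables2 had 98.2 TPM and Rps21 3.98, and in rat T419F, with one of the lowest shares, Cables2 had 5.50 TPM and Rps21 76.3. Wdr38 had 335 TPM in rat T448M and 48.8 in rat T419F, where Rpl35 had 0 and 1.12 TPM. Rps21 was thus highest in a library of low share, but it did not follow the share steadily. It had 58.2 TPM in rat T398F, at a share of 2.16%, and 5.94 TPM in rat T393F, at the lowest share. Rpl35 showed no steady order either, with 42.6 TPM in rat T392F and 0 in rats T410F and T448M, all 3 of high share. Whether reads of these members were assigned to their neighbours was not tested, and the levels of Rps21, Rps18, Rps28 and Rpl35 are uncertain for the comparisons that follow.

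**Figure D4:**
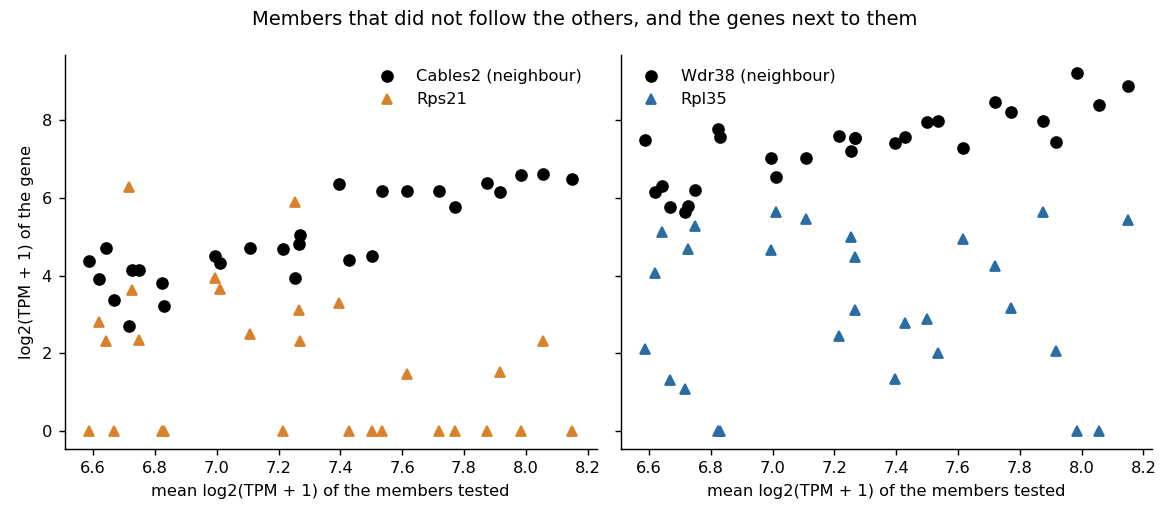
Level of Rps21 and its neighbour Cables2 (left) and of Rpl35 and its neighbour Wdr38 (right) as log2(TPM + 1), against the mean log2(TPM + 1) of the members tested, with 1 point per library. Cables2 (r = 0.86) and Wdr38 (r = 0.81) rise with the mean, whereas Rps21 (r = -0.38) and Rpl35 (r = -0.08) do not.

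Whether vessels just short of capillary dropout differ from normal vessels was asked with the pre-dropout group against the normal group. No ribosomal protein gene passed edgeR's quasi-likelihood test at an adjusted p of 0.05 and over 2-fold, of 81 tested, where 0% of the 13800 genes passed. At an unadjusted p under 0.05, 0 members were higher and 1 was lower, against 0.196% and 2.66% of all genes, and DESeq2 called none either, with 1 member lower at an unadjusted p under 0.05 (2.76% of all genes). On the log2 scale 33 of the 81 lay above 0, or 25 of 49 large and 8 of 32 small subunit symbols, with a median of -0.06 where all genes had -0.13 and 41.1% above 0. Large subunit symbols had a median of 0.03 and small subunit symbols of -0.11. For the same density groups and limits, the paper reported a set of genes, all higher in pre-dropout vessels. It used EBSeq on reads mapped to annotated Nile rat genes, whereas edgeR on the deposited counts with mouse symbols was used here.

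The 1 member was Rps29, and it rests on few reads. Rps29 had a count in 6 of 24 normal libraries, with 14.9 CPM in rat T446M and 8.91 in rat T408F as the highest. It had 0 in all 4 pre-dropout libraries. The normal mean was 7.88 times a floor of 3 counts over the pooled pre-dropout libraries, and 5.15 times without rat T446M. Most normal libraries were at 0 too, so 4 libraries at 0 do not show a lower level of the group. The log2 difference of Rps29 was -5.93 (SE 2.775). Its adjusted p in edgeR was 0.9999 (unadjusted p = 0.0392). Rps27a, the ubiquitin fusion, had 216, 275, 295 and 617 CPM in rats T353M, T389M, T391M and T407M, against 102, 575 and 2125 as lowest, median and highest of the normal group. The log2 difference was -0.94 (SE 0.58) with an adjusted p of 0.9999 in edgeR, and the pre-dropout values lay inside the normal range. Rps27rt had 6.66, 14.3, 25.6 and 46.3 CPM in the same rats, against 4.34, 55.5 and 267 in the normal group, with a log2 difference of -1.55 (SE 0.83). On the other side, Rpl7l1, a paralog of Rpl7 that acts in ribosome assembly, had 110.0, 97.3, 80.2 and 125 CPM against 12.3, 50.9 and 179, a log2 difference of 0.74 (SE 0.45). All 4 pre-dropout values of Rpl7l1 were above the normal median, but inside the normal range. By p, Rpl12 and Rpl6l followed at 0.48 (SE 0.45) and 0.37 (SE 0.39).

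The median of the members changed sign with the choice of rats and of fit. Without rat T353M it was 0.07, and without rat T407M, the pre-dropout rat of the highest share, it was -0.32. Within males alone it was -0.27 (16 of 77 above 0, where 46.9% of all genes were) and with sex as a covariate -0.28, whereas limma-voom with sample weights gave 0.39 (66 of 81 above 0, where 43.6% of all genes were). At an unadjusted p under 0.05, 3 members were lower in males alone (0.512% of all genes), and 9 were higher in limma-voom with sample weights (4.33% of all genes). No member passed in any of these fits.

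**Figure D5:**
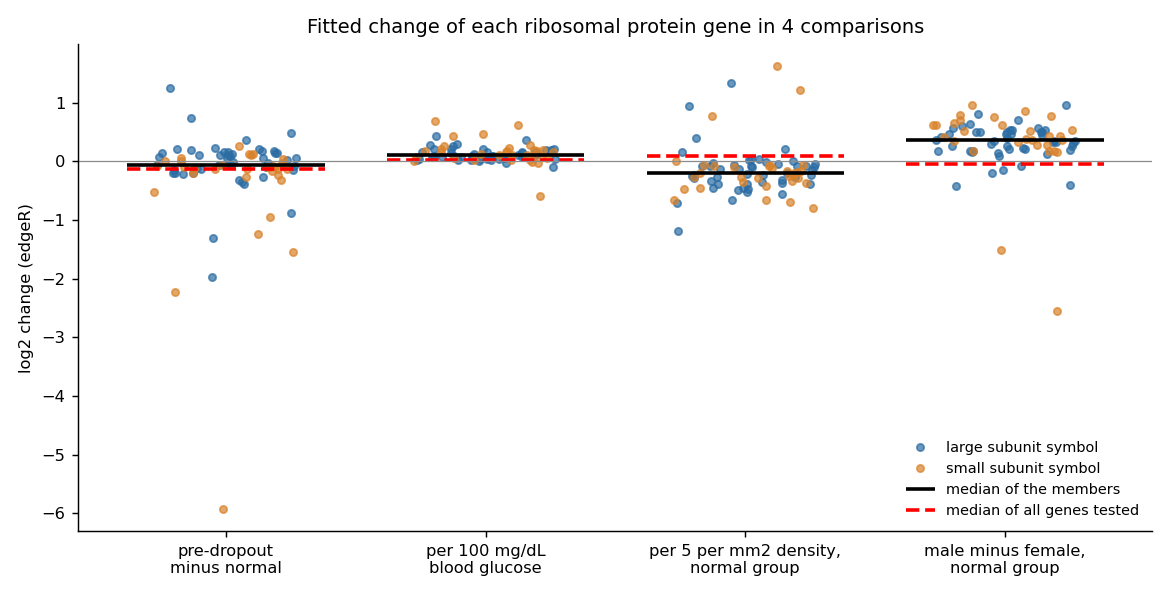
Fitted log2 change of each ribosomal protein gene in the 4 comparisons, with 1 point per gene, a black line at the median of the members and a dashed line at the median of all genes tested. The member medians are -0.06, 0.10, -0.21 and 0.36 from left to right, and no point passed an adjusted p of 0.05 in edgeR.

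The second question was whether levels follow blood glucose, with sex in the model and all 28 rats. No member passed at an adjusted p of 0.05 (0% of 13800 genes passed). At an unadjusted p under 0.05, 2 members had a positive slope and 0 a negative one, against 2.27% and 1.54% of all genes, and DESeq2 had 0 members at that level, where 3.23% of all genes had a positive slope. With library size and detected genes as covariates 7 members had a positive slope at that level (3.24% of all genes). The slope was above 0 for 76 of 81 members, where 52.4% of all genes lay above 0, with a median of 0.10 log2 units per 100 mg/dL against 0.01 for all genes. Rps14 had the smallest p, with a slope of 0.28 (SE 0.13, unadjusted p = 0.043, adjusted p = 1 in edgeR). Its level was 166, 276, 241, 757 and 547 CPM in rats T370M, T389M, T391M, T392F and T446M, the 5 above 200 mg/dL, against 72.7, 249 and 727 as lowest, median and highest of the other 23. Rpl34 had a slope of 0.26 (SE 0.13), with 88.6, 92.9, 95.4, 605 and 254 CPM in the same 5 rats, against 45.6, 144 and 278. For Rpl34, 3 of these 5 rats lay below the median of the rest, and rat T392F alone lay above their range. Rpsa followed with a slope of 0.22 (SE 0.12). The members with the smallest p below 0 were Rps18 at -0.60 (SE 0.59), Rpl30 at -0.10 (SE 0.14) and Rpl6l at -0.04 (SE 0.13).

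The common positive slope rested on 1 rat. Without rat T392F, a female with 361.5 mg/dL, 35 of 82 members lay above 0, where 53.7% of all genes did, and the median was -0.01, and the slope of Rpl34 was -0.03 and that of Rps14 0.08. The share of TPM had r = 0.04 with glucose in the 27 libraries without it. Among females alone, where this is the only rat above 200 mg/dL, 77 of 82 members lay above 0 (33.5% of all genes) with a median of 0.42, and 30 had an unadjusted p under 0.05 and a positive slope (0.847% of all genes). In males alone 18 of 77 lay above 0 (51.8% of all genes) with a median of -0.05. For the difference of the slopes, males minus females, no member passed at an adjusted p of 0.05 in edgeR. It was below 0 at an unadjusted p under 0.05 for 25 of 83 members and above 0 for 1, where 1.18% of all genes were below and 10.8% above. The median was -0.46 over the members and 0.36 over all genes, and the difference of Rpl34 was -0.80 (SE 0.26, adjusted p = 0.268).

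Within the normal group, levels were set against the density of acellular capillaries, with sex in the model. No member passed (0% of 13677 genes passed), none had an unadjusted p under 0.05 in either direction, where 0.548% of all genes were higher and 0.570% lower, and 12 of 81 slopes lay above 0, where 56.3% of all genes did. The median was -0.21 log2 units per 5 acellular capillaries per mm2, against 0.09 for all genes. The smallest p belonged to Rpl39, with a slope of -1.19 (SE 0.63), Rpl10, with -0.53 (SE 0.29), and Rps26, with -0.67 (SE 0.38). Of the 12 above 0, those of smallest p were Rps21 at 1.62 (SE 1.17), Rps18 at 1.21 (SE 1.02) and Rps19bp1 at 0.78 (SE 1.02), and Rpl24 had a larger slope than the latter pair with a wider error, 1.33 (SE 1.81). Without rat T392F the median was -0.43 and 14 members were lower at an unadjusted p under 0.05 (0.950% of all genes), with none past the adjusted threshold. With limma-voom and sample weights it was -0.35 and 13 were lower at an unadjusted p under 0.05 (1.33% of all genes), again with none past the adjusted threshold. With covariates for library size and detected genes the median was -0.11.

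In the normal group, ribosomal protein genes were higher in 8 males than in 16 females for 70 of the 77 members tested, but none passed at an adjusted p of 0.05 in edgeR (0.0247% of 12162 genes passed). At an unadjusted p under 0.05, 5 members were higher and 0 lower, where 2.06% and 2.32% of all genes were. DESeq2 called none, with 3 higher and 1 lower at an unadjusted p under 0.05, where 0.995% and 4.71% of all genes were. The median log2 difference was 0.36, against -0.04 for all genes, where 47.7% lay above 0. It was 0.34 for large and 0.43 for small subunit symbols. The 5 were Rps7, Rpl13, Rps2, Rps14 and Rps9. Rps7, a small subunit protein that also binds Mdm2, had 225, 631 and 1061 CPM as lowest, median and highest in males and 172, 340 and 787 in females, a log2 difference of 0.75 (SE 0.28, adjusted p = 0.984 in edgeR). Rpl13 had 130, 272 and 557 CPM in males and 60.3, 163 and 351 in females, a log2 difference of 0.81 (SE 0.30). Rps2 had 75.5, 279 and 733 CPM in males and 25.7, 152 and 441 in females, a difference of 0.96 (SE 0.38). Rps14 and Rps9 differed by 0.78 (SE 0.36) and 0.62 (SE 0.30). For each of the first 3, the median of the males was above that of the females and the ranges overlapped over most of their length. Of the 7 members below 0, those of smallest p were Rps18 at -2.55 (SE 1.41), Rps19bp1 at -1.51 (SE 1.28) and Rpl10a at -0.40 (SE 0.68).

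This comparison depended on the method. limma-voom with sample weights called 47 of 77 members higher in males and 0 lower, where 3.25% of all genes were called higher and 4.15% lower, with a median log2 difference of 1.14 against -0.46 for all genes. Without the 2 libraries under 1000000 counts it called 42 of 79 higher and 0 lower, where 3.25% and 3.20% of all genes were called. The same tool without sample weights called 0 (38 higher, where 7.71% of all genes were, and 1 lower, where 9.68% were, at an unadjusted p under 0.05, median 0.66). In edgeR without rat T392F, 16 members were higher at an unadjusted p under 0.05, where 2.30% of all genes were, and none passed the adjusted threshold. The normal males also had fewer detected genes, 10478 ± 1659 against 12104 ± 2527, and less amacrine, horizontal and ganglion marker TPM, 506 ± 272 against 1163 ± 806 (SD, n = 8 and 16). With library size and detected genes as covariates, 57 of 82 members lay above 0, where 50.8% of all genes did, and the median was 0.10. The part of these measures in the difference was not tested.

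The partners of the ribosome gave no calls. No gene of 25 elongation and initiation factors, 35 ribosome biogenesis genes, 20 genes of mTORC1 and pyrimidine tract control or the mitochondrial ribosomal proteins tested passed an adjusted p of 0.05 in edgeR in any of the 4 comparisons. At an unadjusted p under 0.05 there was 1 lower in pre-dropout rats, where 2.66% of all genes were, 1 with a negative slope on glucose (1.54% of all genes), 1 with a positive slope on density (0.548%), and 6 higher and 1 lower in males (2.06% and 2.32%). Elongation and initiation factors, which bring transfer RNA and messenger RNA to the ribosome, lay above 0 for 18 of 25 in males against females, with a median of 0.29 and with 5 higher at an unadjusted p under 0.05, among them Eif3l at 0.92 (SE 0.34) and Eif3f at 0.68 (SE 0.30), both subunits of the factor that joins the small subunit to messenger RNA. Of all genes 47.7% lay above 0 in males. In pre-dropout rats 18 of 25 factors lay above 0 with a median of 0.12, where 41.1% of all genes did. Against glucose 15 of 25 lay above 0 (52.4% of all genes) with a median of 0.04, and against density 5 of 25 (56.3%) with a median of -0.22. The medians of all genes were -0.13 in pre-dropout rats, 0.01 against glucose, 0.09 against density and -0.04 in males. Ribosome biogenesis genes had medians of 0.08 in pre-dropout rats, -0.00084 against glucose, 0.07 against density and 0.10 in males. The mTORC1 genes had medians of 0.08, -0.01, -0.19 and 0.10 in the same order. The 75 mitochondrial ribosomal protein genes tested, which build a separate ribosome inside mitochondria, had medians of -0.08, 0.06 and 0.06 in the first 3 comparisons, and 70 of them tested in males against females had 0.08. They held 0.327% ± 0.0509 of TPM (n = 28), from 0.238% to 0.436%, a range of 1.83-fold against the 4.38-fold range of the cytosolic family.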

How the data were processed

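RNA was isolated from whole retinal vasculature and libraries were made from 100 ng of total RNA with the LM-seq protocol of the submitters. The authors deposited expected counts per gene, estimated reads that are not scaled between libraries, and TPM, divided by transcript length by the authors and scaled to the same total in every library. Both tables carry mouse symbols, which with the study's methods points to the comparative pipeline CRSP. Versions are not given in the sources used here, strand was not stated, and depth limits each value to counting error at best.

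Expected counts were rounded and tested with edgeR 4.0.16 (R 4.3.3, filterByExpr with a minimum count of 10, TMM, quasi-likelihood test, Benjamini-Hochberg adjustment over all genes). Alternatives used DESeq2 1.42.0 and limma 3.58.1. Calls needed an adjusted p under 0.05, and over 2-fold between density groups. The SE was taken from the F statistic. The steps were tested on simulated counts with a smaller biological coefficient of variation than these data (common value 1.32). That test does not show what size of change the steps would find at the spread of these data. Groups came from the labelled density, normal under 16 and pre-dropout 17 to 18 per mm2, and glucose is read as mg/dL after the study's methods. Replicates are separate rats.

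Members, lists and tests were chosen with earlier results of these data known. Named were the 5 highest members per subunit, lists with a named role, stalk members and paralogs, the 3 smallest p in each direction per comparison and the members called at an unadjusted p under 0.05, the 3 lowest and highest CVs, members mostly at 0, and the 8 genes most like the family mean. Neighbours, members of low correlation and examples in partner lists were named after their values were seen. No sequences were used here.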

Additional observations from a re-analysis of the deposited data

Results flagged for a closer look

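In the pre-dropout group rat T407M stood apart in its ribosomal protein share, with 3.25% of TPM where the other 3 rats lay between 2.33% and 2.46%. Among the 8 normal males, rat T447M stood apart for Rps18, with 11.8 CPM where the others lay between 0 and 4.001. Of 16 groups of values examined in this way, these 2 had a sample far from the others. The limit flags about 1 in 20 sets of normally distributed values. Most of the 16 were genes taken by smallest p, some with many values at 0, so that rate does not hold for them.

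The 11 symbols with -ps, which name mouse pseudogenes of the family and were left out by the rule, summed to 305 ± 165 TPM (SD, n = 28), from 59.5 to 678. Rpl23a-ps3 with 85.6 ± 86.3 TPM, Rps2-ps6 with 73.6 ± 54.3 and Rpl21-ps4 with 43.6 ± 76.2 were the highest. Whether these are reads of the parent genes was not tested.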

How the results depend on the processing

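The count of members called was 0 under every alternative run for the density groups, for glucose and for density within the normal group. For males against females it was 0 except under limma-voom with sample weights, with 47 called, and with 42 without the libraries under 1000000 counts, a fit added after seeing the data. The cause was not tested. Leaving out each pre-dropout rat, the difference of the share of TPM, pre-dropout minus normal (-0.29 percentage points), ran from -0.501 to -0.196, and that of the large to small ratio (0.11) from 0.0833 to 0.145. The median CV (0.555) was 0.522 from TPM and 0.543 without the libraries under 1000000 counts.

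Slopes on glucose that changed sign were those of Rpl34 with limma-voom (-0.075), in males (-0.066), with limma on log2(TPM + 1) without rat T392F (-0.049) and over the fits that left out 1 rat above 200 mg/dL each (-0.025, without rat T392F, to 0.371), of Rpsa in males (-0.029), of Rpl6l with library size and detected genes as covariates (0.057), with no covariate (0.012) and in females (0.022), and of Rpl30 in females (0.30). Rpl10a was higher in males under limma-voom with sample weights (0.77) and without the small libraries (0.81).

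No paired analysis was possible because the labels carry no replicate numbers shared between groups. Fits without rat T392F, by sex, and the sex by glucose interaction were added after seeing the data. Depth under 1000000 counts in 2 libraries limits members under 20 TPM most, where a count of 0 says little. With 4 pre-dropout rats, all male, sex and group cannot be told apart without the normal males.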
